A study of Mus musculus with 6 samples.

Results

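The genes described here are the rows of the deposited table whose symbol begins with Ccl, Cxcl, Cx3cl, Xcl, Ccr, Cxcr, Cx3cr, Xcr or Ackr followed by a digit. There were 69 such rows among 34745, of which 41 held 10 or more counts over the 6 libraries, 11 held fewer and 17 held 0. RNA was sequenced from cells labelled as liver sinusoidal endothelial cells (LSECs) in 3 libraries of Tgfbr2f/f mice (f/f, the floxed gene alone) and 3 labelled Tgfbr2 ECKO (called ECKO-labelled below), with an endothelial knockout of the type II TGF-beta receptor gene; the f/f mice were littermates. Both groups had carbon tetrachloride (CCl4), a liver toxin that produces fibrosis, injected into the peritoneum 2 times a week over 6 weeks, so no library shows the liver without CCl4. The sources used here do not give the Cre driver, the deleted exons, the cell isolation or the age, sex and strain of the mice. The labels do not say that each library is a separate mouse, so the p-values cover only the spread among these libraries, which may be technical.

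Chemokines are small secreted proteins that steer leukocytes and other cells along gradients. They act through G protein-coupled receptors on the migrating cell and are held on vessel walls by heparan sulfate. Inflammatory chemokines are switched on by cytokines, whereas homeostatic ones such as CXCL12 are made steadily by stromal and endothelial cells. Atypical receptors (Ackr genes) bind chemokines without G protein signalling and mostly remove or transport them. In the injured liver, sinusoidal endothelium both presents and makes chemokines for neutrophils, monocytes and lymphocytes.

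Library totals ran from 17171850 to 25062755 counts. The LSEC label was checked with 12 sinusoidal genes, including Stab2 and Lyve1, which summed to 23594 to 27458 CPM (counts scaled to library size) in f/f against 25764 to 30616 CPM in the ECKO-labelled libraries. Tgfbr2 itself stood at 427 ± 34.9 CPM in f/f against 498 ± 12.1 CPM in the ECKO-labelled libraries (n = 3 each, ± SD; adjusted p = 0.228). Counts over the whole gene cannot check a deletion of part of it, so the label was not tested. Mitochondrial transcripts took 11.5% to 23.5% of counts in f/f against 19.7% to 32.4% in the ECKO-labelled libraries. CPM values here are scaled by TMM, which sets libraries level on genes that do not move, and their folds are log2 of ECKO over f/f with a standard error (SE).

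Of the 41 genes, 29 passed a filter on low counts and were tested, 20 ligands and 9 receptors. Cxcl12 fell and Ackr2 rose at an adjusted p under 0.05 (edgeR quasi-likelihood test, Benjamini-Hochberg over 13692 genes), and 27 did not pass. The background was 2.79% of all genes lower and 1.24% higher, so 1 of 29 in each direction is near it. In direction, 26 of the 29 had a log2 fold change below 0 and 3 above, with a median of -0.95 against 0.01 for all genes tested, of which 48.6% were below 0. At an unadjusted p under 0.05, 13 of the 29 were lower and 1 was higher, where the background was 13.1% and 10.4%. All 3 libraries labelled ECKO lay below all f/f libraries for 11 genes and above them for 2 (Ackr2 and Cxcl16), with a background of 15.1% and 15.8%. These counts over the genes that passed the filter describe them and carry no test of the family as a whole. Scaling by total counts, which shifted the median of all genes to -0.22, called 9 of the 29 lower and 0 higher, and over all genes it called 1209 lower and 63 higher, against 382 and 170 with TMM. DESeq2 was run without the filter on low counts and gave p-values for 20077 genes and all 41 members. Its own filter on mean counts was left on for the adjustment. It called 9 members lower and 1 higher, and over all genes 1038 lower and 453 higher.

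**Figure D1:**
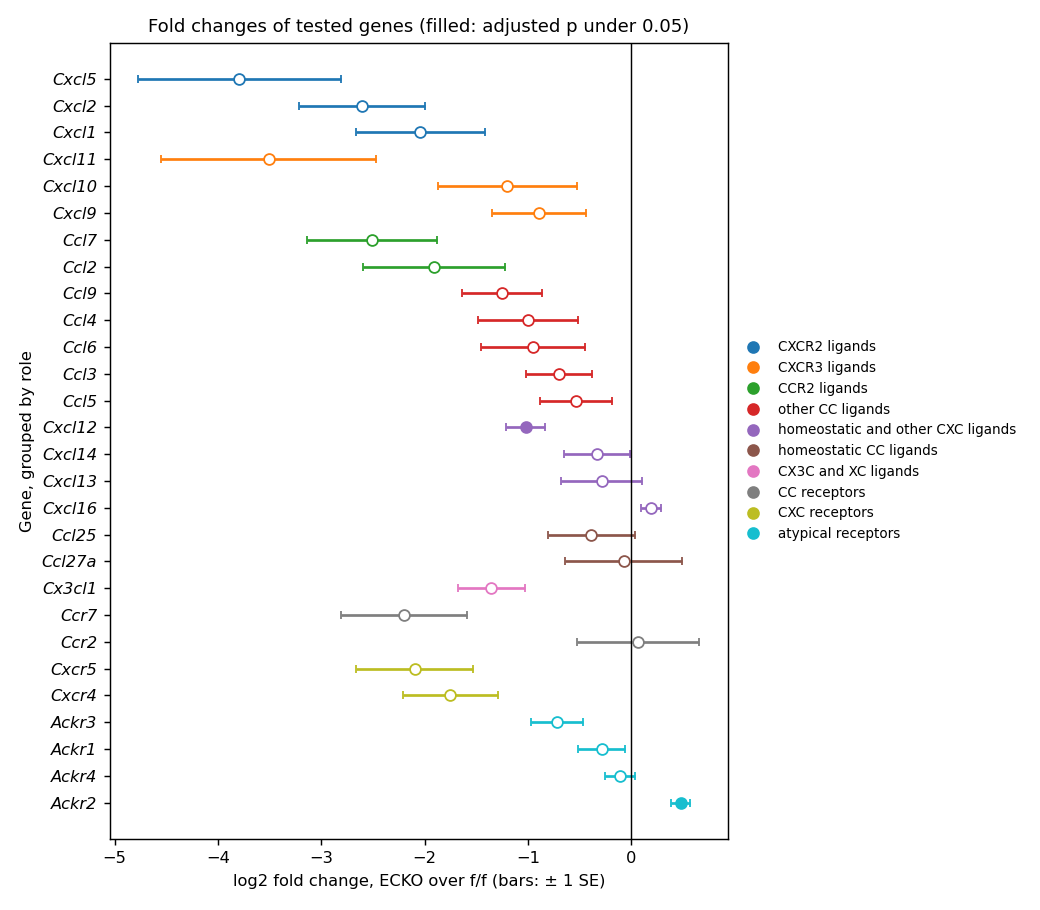
Log2 fold change of ECKO over f/f for the tested genes reported here, coloured by role, with bars of 1 SE. Filled points passed an adjusted p of 0.05: Cxcl12 at -1.02 and Ackr2 at 0.48, while Cxcl5 and Cxcl11 lie farthest to the left with wide bars.

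Per transcript length, the most abundant members were few. On the deposited FPKM scale, which divides by gene length and by the library total, Cxcl10 had the highest f/f level at 99.1 ± 72.0 FPKM (n = 3), then Cxcl9 at 69.9 ± 36.5, Ackr2 at 37.9 ± 4.79, Cxcl16 at 37.3 ± 3.54 and Cxcl1 at 30.3 ± 20.2. In the ECKO-labelled libraries the order was Ackr2 at 44.7 ± 6.49 FPKM, Cxcl10 at 38.5 ± 11.6, Cxcl16 at 36.2 ± 4.01 and Cxcl9 at 32.9 ± 6.06. Each pair of neighbours named in these orders differed by less than the larger of its SDs. Receptors that signal were low: Cxcr4, the highest of those tested, stood at 2.06 ± 1.09 FPKM in f/f against 0.493 ± 0.141 FPKM in the ECKO-labelled libraries. Cxcl9, Cxcl10, Cxcl12 and Cxcl16 together made up 84.6% to 87.1% of the summed ligand CPM in the f/f libraries and 91.5% to 94.0% in those labelled ECKO.

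**Figure D2:**
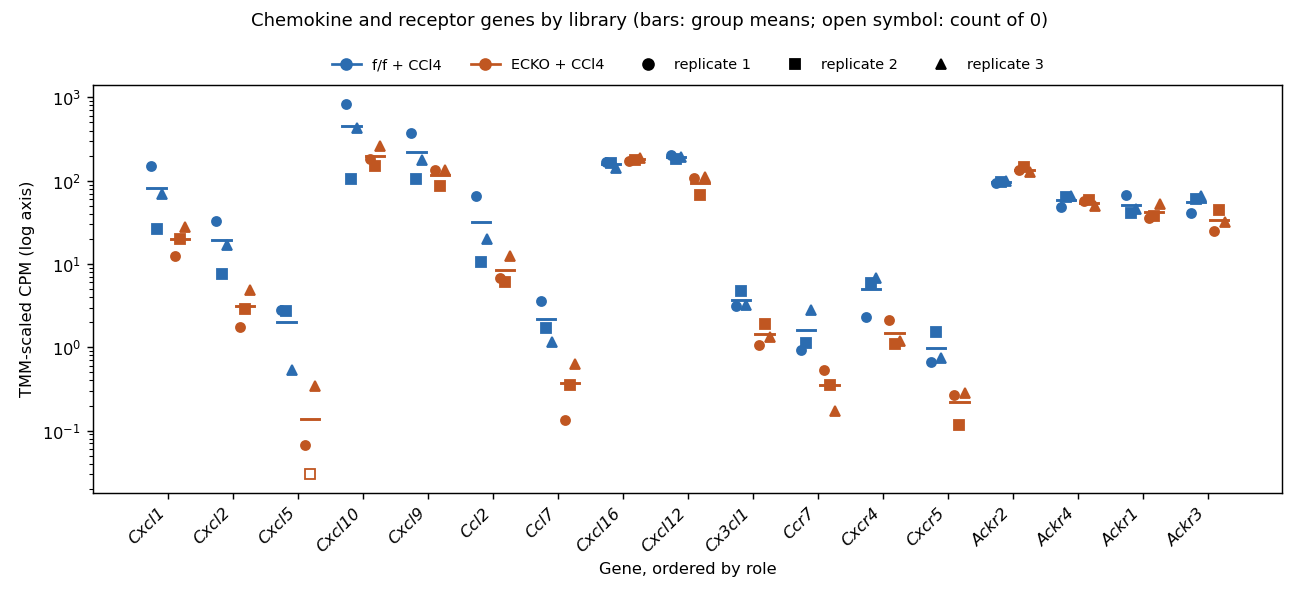
TMM-scaled CPM on a log axis for 17 genes in each of the 6 libraries, f/f in blue and ECKO in orange, with group means as bars and a count of 0 as an open symbol. Cxcl12 and Ackr2 sit in separate groups, whereas Cxcl10 ranges from 104 to 843 CPM within f/f.

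The promoters of 6 of these genes are printed because their levels carry the results below: the inflammatory ligands Cxcl1, Cxcl2, Cxcl9 and Cxcl10, which were all highest in the same f/f library, and the genes that passed, Cxcl12 and Ackr2. Each line gives the 250 bases before the RefSeq transcription start, 5′ to 3′ on the gene's strand (RefSeq, GRCm38.p6; the files' build is mm10/GRCm38), with motif matches in capitals.
Cxcl1 (chr5:90890995-90891244, plus strand): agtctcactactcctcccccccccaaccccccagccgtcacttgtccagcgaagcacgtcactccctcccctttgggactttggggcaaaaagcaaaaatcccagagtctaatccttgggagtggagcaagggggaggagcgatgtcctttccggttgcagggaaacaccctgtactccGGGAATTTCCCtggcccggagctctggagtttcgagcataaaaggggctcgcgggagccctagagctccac
Cxcl2 (chr5:90903649-90903898, plus strand): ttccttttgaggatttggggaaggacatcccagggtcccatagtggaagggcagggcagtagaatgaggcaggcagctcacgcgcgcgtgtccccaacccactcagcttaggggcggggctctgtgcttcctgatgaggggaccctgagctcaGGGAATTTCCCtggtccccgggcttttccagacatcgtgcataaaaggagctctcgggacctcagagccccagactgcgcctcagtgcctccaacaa
Cxcl10 (chr5:92348890-92349139, minus strand): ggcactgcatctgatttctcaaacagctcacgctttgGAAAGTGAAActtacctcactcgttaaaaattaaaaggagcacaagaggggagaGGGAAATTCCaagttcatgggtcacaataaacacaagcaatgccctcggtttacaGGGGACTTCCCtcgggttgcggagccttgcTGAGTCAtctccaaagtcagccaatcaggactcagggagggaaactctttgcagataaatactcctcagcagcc
Cxcl9 (chr5:92328080-92328329, minus strand): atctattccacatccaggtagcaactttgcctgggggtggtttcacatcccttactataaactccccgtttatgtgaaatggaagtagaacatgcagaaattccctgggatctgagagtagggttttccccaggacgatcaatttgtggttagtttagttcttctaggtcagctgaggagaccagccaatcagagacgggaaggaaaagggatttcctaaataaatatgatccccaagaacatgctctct
Cxcl12 (chr6:117168285-117168534, plus strand): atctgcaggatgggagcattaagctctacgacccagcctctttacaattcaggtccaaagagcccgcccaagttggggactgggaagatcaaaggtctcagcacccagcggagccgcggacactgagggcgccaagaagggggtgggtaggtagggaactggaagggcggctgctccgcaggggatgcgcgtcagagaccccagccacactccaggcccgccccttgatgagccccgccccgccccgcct
Ackr2 (chr9:121898105-121898354, plus strand): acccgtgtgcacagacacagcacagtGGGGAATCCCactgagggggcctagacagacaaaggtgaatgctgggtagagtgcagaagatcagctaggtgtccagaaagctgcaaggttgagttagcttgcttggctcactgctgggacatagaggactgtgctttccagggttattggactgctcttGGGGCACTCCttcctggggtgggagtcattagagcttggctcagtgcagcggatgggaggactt

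Motifs were searched on both strands: the NF-kB consensus, the core of the interferon-stimulated response element (GAAA, any 2 bases, GAAA), the AP-1 site TGANTCA and the SMAD palindrome GTCTAGAC. Among all 32851 promoter windows of this length these were present in 7.25%, 2.98%, 6.75% and 0.167%. The window of Cxcl1 held GGGAATTTCC 71 to 62 bases before the start, and that of Cxcl2 held the same 10 letters 97 to 88 bases before it, each overlapped by a match on the other strand. The Cxcl10 window held GGGAAATTCC 159 to 150 bases before the start, GGGGACTTCC 104 to 95 bases before it with an overlapping match, the interferon core as GAAAGTGAAA 213 to 204 bases before it and an AP-1 match 74 to 68 bases before it. The Ackr2 window matched the NF-kB consensus at 2 places, and the windows of Cxcl9 and Cxcl12 matched none of the 4 motifs. Of the 41 rows, 27 genes had a window, and 7 of these matched NF-kB, 2 the interferon core, 3 AP-1 and 0 the SMAD palindrome. A gene was counted if any of its windows matched (31 windows in all), whereas the percentages above are per window. Cxcl5, Cxcl11, Ccl2 and Ccl7 had no window. A match is a string of letters and not a measured site.

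CXCL12 draws cells bearing CXCR4, among them hematopoietic progenitors, lymphocytes and stellate cells. Cxcl12 (ENSMUSG00000061353, chromosome 6, 117168535 to 117181367, plus strand) stood at 201, 184 and 192 CPM in f/f replicates 1 to 3 and at 107, 66.6 and 112 CPM in the ECKO-labelled libraries. The groups did not overlap, and the lowest f/f library was above the highest ECKO-labelled one. The means were 192 ± 8.88 and 94.9 ± 24.7 CPM (n = 3 each), which is a log2 difference of -1.02 (adjusted p = 0.0329, SE 0.19) or 2.03-fold lower. It passed without f/f replicate 1 and without ECKO replicate 2 (adjusted p = 0.0433 and 0.0258), but not without ECKO replicate 1 (0.0990), ECKO replicate 3 (0.0718), f/f replicate 2 (0.0686) or f/f replicate 3 (0.115).

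Markers of stellate cells and fibroblasts, which also express Cxcl12, were lower in the same libraries. The 16 listed markers summed to 1881, 3045 and 3189 CPM in f/f against 1035, 755 and 1114 CPM in the ECKO-labelled libraries, and 8 of them fell and 0 rose. Dcn, the proteoglycan decorin, fell from 704 ± 33.1 to 346 ± 66.6 CPM (adjusted p = 0.0178, log2 fold change -1.03, SE 0.15), missing the threshold without ECKO replicate 1 (0.0772) or f/f replicate 3 (0.0779). Tcf21, which encodes a mesenchymal transcription factor, fell by 2.04 in log2 (adjusted p = 0.00853, SE 0.20) and passed without each library in turn. Col1a2, a fibrillar collagen gene, fell by 2.70 (adjusted p = 0.0246, SE 0.40) and Colec11, a collectin gene, by 0.70 (adjusted p = 0.0250, SE 0.12). Col1a2 passed only without f/f replicate 1, and Colec11 missed without ECKO replicate 1, ECKO replicate 2 or f/f replicate 3 (adjusted p up to 0.0990 and 0.110). None of the 16 was at 0 throughout either group. In bulk RNA fewer cells of a type and less RNA per cell cannot be told apart, and the part of these cells in the Cxcl12 result was not tested.

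The receptors for CXCL12 were Cxcr4, which signals, and Ackr3, an atypical receptor of endothelium and other cells that takes CXCL12 up. Cxcr4 (chromosome 1, 128588199 to 128592293) stood at 2.34, 5.84 and 6.70 CPM in f/f against 2.13, 1.10 and 1.20 CPM in the ECKO-labelled libraries. The groups were separate by a narrow gap, with f/f replicate 1 next to ECKO replicate 1, and the log2 fold change was -1.75 (adjusted p = 0.0765, SE 0.46). It passed in 1 of 6 fits with a library left out, at -2.09 without f/f replicate 1 (adjusted p = 0.0159). The other 5 missed (0.125 to 0.219), down to -1.46 without f/f replicate 3. With all libraries, Cxcr4 passed in DESeq2 (adjusted p = 0.0049) and in edgeR with total count scaling (0.0197), but not in limma-voom (0.154). Ackr3 stood at 40.7, 60.9 and 64.9 CPM in f/f against 24.8, 44.2 and 32.2 CPM in the ECKO-labelled libraries. One ECKO-labelled library overlapped the f/f range, and the log2 fold change was -0.72 (adjusted p = 0.144, SE 0.25).

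Ackr2 encodes the decoy receptor D6, which internalizes and degrades inflammatory CC chemokines such as CCL2, CCL3, CCL4 and CCL5. Ackr2 (ENSMUSG00000044534, chromosome 9, 121898464 to 121911064, plus strand) stood at 94.6, 95.6 and 99.6 CPM in f/f against 133, 144 and 126 CPM in the ECKO-labelled libraries. The groups did not overlap and each was tight. The means were 96.6 ± 2.62 and 134 ± 9.47 CPM (n = 3 each), which is a log2 difference of 0.48 (adjusted p = 0.0374, SE 0.09) or 1.39-fold higher. The rise depended on the scaling: scaled by total counts it was 0.24 (adjusted p = 0.393), while the FPKM means were 37.9 ± 4.79 and 44.7 ± 6.49. When libraries were left out in turn, Ackr2 passed without f/f replicate 1 (0.0471). Without any of the others it missed, at 0.109, 0.0697 and 0.0876 for ECKO replicates 1 to 3, 0.106 for f/f replicate 2 and 0.135 for f/f replicate 3.

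The other atypical receptors did not pass. Ackr4, a scavenger of CCL19, CCL21 and CCL25, stood at 47.9, 63.0 and 66.2 CPM in f/f against 56.8, 57.9 and 49.3 CPM in the ECKO-labelled libraries, so the groups overlapped (adjusted p = 0.665, log2 fold change -0.11, SE 0.14). Ackr1, a receptor of venular endothelium and erythroid cells that carries chemokines across the vessel wall, stood at 66.8, 41.1 and 46.02 CPM in f/f against 35.5, 37.3 and 53.1 CPM in the ECKO-labelled libraries. These overlapped too (adjusted p = 0.467, log2 fold change -0.29, SE 0.22). Summed over the 4 atypical receptors, the levels were 250.1, 261 and 277 CPM in f/f against 250.1, 284 and 260.2 CPM in the ECKO-labelled libraries.

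**Figure D3:**
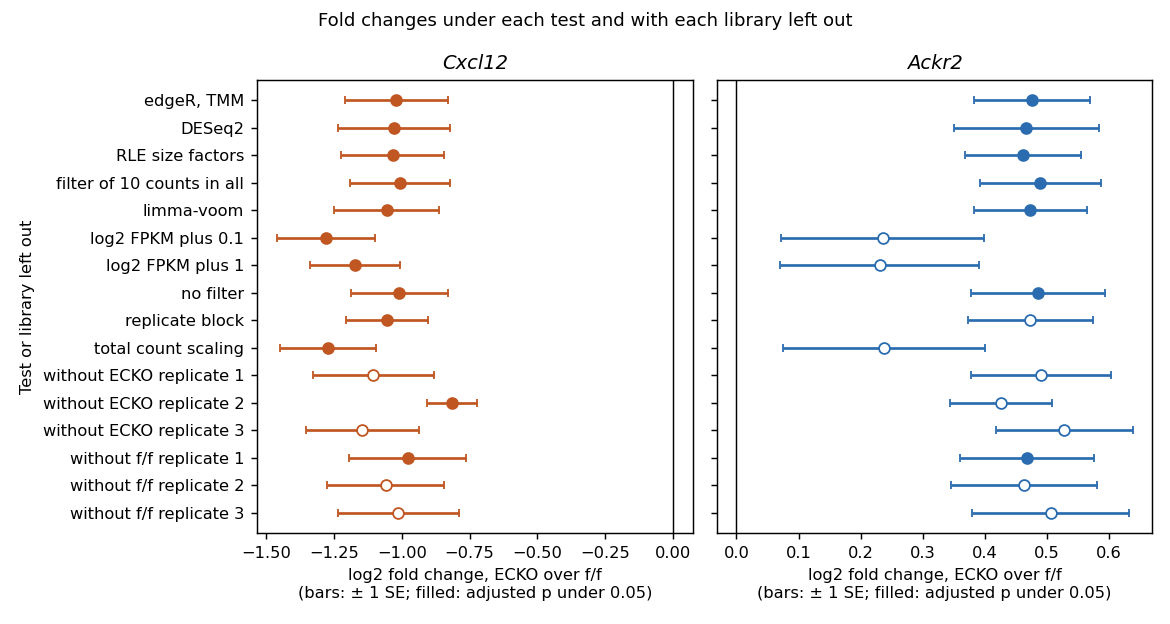
Log2 fold change of ECKO over f/f, with bars of 1 SE, for Cxcl12 and Ackr2 under each test and with each library left out; filled points passed an adjusted p of 0.05. Every point for Cxcl12 lies between -1.28 and -0.81 and every point for Ackr2 between 0.23 and 0.53, while the side of the threshold varies.

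The ligands of CXCR2 recruit neutrophils. Cxcl1 (chromosome 5, 90891241 to 90893115) stood at 152, 26.5 and 70.2 CPM in f/f against 12.6, 20.1 and 27.5 CPM in the ECKO-labelled libraries. F/f replicate 2 lay within the range of the other group, and the log2 fold change of -2.04 (SE 0.63) did not pass (adjusted p = 0.121). Cxcl2 (chromosome 5, 90903871 to 90905938) stood at 33.1, 7.56 and 17.0 CPM in f/f against 1.73, 2.85 and 4.81 CPM in the ECKO-labelled libraries. The groups did not overlap, though the f/f libraries differed by 4.37-fold among themselves (adjusted p = 0.0678, log2 fold change -2.61, SE 0.61). Cxcl2 passed in 1 of 6 fits with a library left out, that without f/f replicate 2 (log2 fold change -2.99, adjusted p = 0.0384). Without f/f replicate 1 it was -1.96 (0.0602), and the others reached 0.179. Cxcl5 stood at 2.84, 2.70 and 0.538 CPM in f/f against 0.0665, 0 and 0.344 CPM in the ECKO-labelled libraries, which held 1, 0 and 6 counts (adjusted p = 0.0775, log2 fold change -3.79, SE 0.98).

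The ligands of CXCR3, induced by interferon-gamma, attract activated T cells and NK cells. Cxcl10 (chromosome 5, 92346638 to 92348889) stood at 843, 104 and 424 CPM in f/f against 184, 149 and 264 CPM in the ECKO-labelled libraries. F/f replicate 2 was the lowest of all 6 libraries and f/f replicate 1 the highest, and the log2 fold change was -1.20 (adjusted p = 0.326, SE 0.67). Cxcl9 (chromosome 5, 92321347 to 92328079) stood at 374, 106 and 176 CPM in f/f against 133, 85.8 and 134 CPM in the ECKO-labelled libraries (adjusted p = 0.284, log2 fold change -0.89, SE 0.45). Cxcl11, the least abundant of the 3, stood at 10.5, 0.687 and 3.97 CPM in f/f against 0.333, 0.174 and 0.802 CPM in the ECKO-labelled libraries. Its log2 fold change was -3.51 (adjusted p = 0.110, SE 1.04), and -4.02 (adjusted p = 0.0371) without f/f replicate 2, the f/f library that overlapped the other group. Without f/f replicate 1 it was -2.40 (adjusted p = 0.150), and the other 4 fits with a library left out missed too (up to 0.257).

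The ligands of CCR2 call monocytes from bone marrow and blood. Ccl2 (chromosome 11, 82035571 to 82037453) stood at 65.0, 10.7 and 19.8 CPM in f/f against 6.72, 6.15 and 12.6 CPM in the ECKO-labelled libraries. F/f replicate 2 lay below ECKO replicate 3, and the log2 fold change was -1.91 (adjusted p = 0.163, SE 0.69), or -0.84 (0.236) without f/f replicate 1. Ccl7 stood at 3.64, 1.72 and 1.16 CPM in f/f against 0.133, 0.348 and 0.630 CPM in the ECKO-labelled libraries, with no overlap (adjusted p = 0.0681, log2 fold change -2.51, SE 0.63).

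These 8 ligands of CXCR2, CXCR3 and CCR2 shared a pattern across libraries. All 8 were highest in f/f replicate 1, which held among the other 21 tested genes for only 2, and 6 of the 8 had their lowest f/f value in replicate 2. The 21 include the inflammatory ligands Ccl3, Ccl4, Ccl5, Ccl6 and Ccl9, each of which was highest in f/f replicate 2 or 3. The grouping was made with earlier results known, and the share of all genes highest in f/f replicate 1 is not given here. The 3 ligands of CXCR3 summed to 1227, 211 and 604 CPM in f/f against 317, 235 and 399 CPM in the ECKO-labelled libraries. All 8 had a log2 fold change below 0, from -3.79 to -0.89, and none passed in edgeR with TMM (adjusted p 0.0678 to 0.326), though 6 of them, all but Cxcl9 and Cxcl10, were under 0.05 unadjusted. DESeq2 called Cxcl2, Cxcl5, Cxcl11 and Ccl7 (adjusted p = 1.4e-05, 0.0020, 0.00084 and 0.0051), and edgeR with total count scaling called Cxcl2, Cxcl5 and Ccl7 (0.0376, 0.0256 and 0.0161). Without f/f replicate 1 the 8 ranged from -3.44 to -0.25 (adjusted p 0.0602 to 0.738), with Cxcl10 at -0.40, Cxcl9 at -0.25, Ccl2 at -0.84, Cxcl1 at -1.26, Ccl7 at -1.90, Cxcl2 at -1.96 and Cxcl11 at -2.40. Without f/f replicate 2 Cxcl10 was at -1.68, Cxcl9 at -1.23, Ccl2 at -2.32, Cxcl1 at -2.47, Ccl7 at -2.65 and Cxcl5 at -3.54. None of these 6 passed (edgeR adjusted p 0.0551 to 0.151), whereas Cxcl2 and Cxcl11 passed in that fit, as given above. Immediate early genes, which respond to cell handling within minutes, were also highest in f/f replicate 1 and lowest of the f/f libraries in replicate 2. The 13 genes summed to 13526, 4325 and 12832 CPM in f/f and to 7060, 6868 and 9024 CPM in the ECKO-labelled libraries. Of the 13, Egr2 and Nr4a1 fell (log2 fold changes -2.65, SE 0.32, and -1.59, SE 0.29; adjusted p = 0.00963 and 0.0337). Egr2 missed without ECKO replicate 1 (0.0509), and Nr4a1 passed only without ECKO replicate 3 or f/f replicate 1 (otherwise up to 0.120). Their part in the ligand values was not tested.

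**Figure D4:**
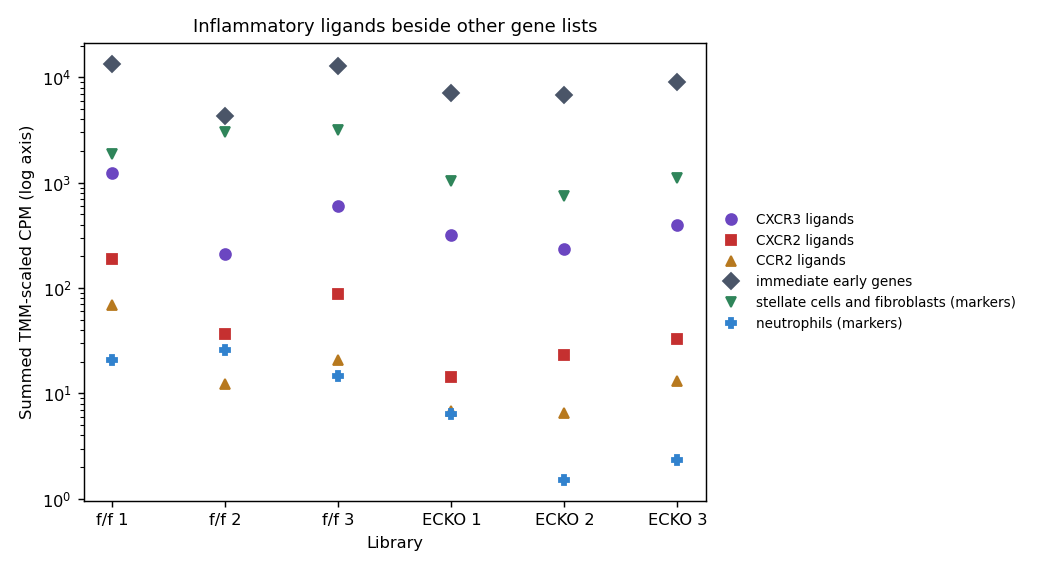
Summed TMM-scaled CPM on a log axis in each library for the ligands of CXCR3, CXCR2 and CCR2, beside immediate early genes and the markers of stellate cells and of neutrophils. The ligands and the immediate early genes are lowest among the f/f libraries in replicate 2, while the stellate markers, 1881 to 3189 CPM in f/f, are lower in each ECKO-labelled library.

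The other inflammatory CC ligands tested, made mainly by leukocytes, were sparse. Ccl3, Ccl4, Ccl5, Ccl6 and Ccl9 summed to 9.86, 19.7 and 13.4 CPM in f/f against 9.05, 5.98 and 7.05 CPM in the ECKO-labelled libraries. All 5 had a log2 fold change below 0, from -1.25 for Ccl9 (adjusted p = 0.109) to -0.54 for Ccl5 (adjusted p = 0.380), and 0 passed in edgeR with TMM, where Ccl9 and no other was under 0.05 unadjusted. Ccl9 passed in DESeq2 (adjusted p = 0.0298) and in edgeR with total count scaling (0.0359). Cx3cl1, the membrane-anchored chemokine fractalkine of activated endothelium, stood at 3.13, 4.71 and 3.23 CPM in f/f against 1.06, 1.92 and 1.32 CPM in the ECKO-labelled libraries. The groups did not overlap, and its log2 fold change was -1.35 (adjusted p = 0.0616, SE 0.32). Cx3cl1 passed in DESeq2 (adjusted p = 0.0072) and in edgeR with total count scaling (0.0289). It passed in no fit with a library left out (0.0503 to 0.165). Its receptor gene Cx3cr1 held 45 counts over f/f and 9 over the ECKO-labelled libraries, of which f/f replicate 2 alone held 29.

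Cxcl16, a membrane-bound ligand for CXCR6 on NKT and T cells, was among the most even members. It stood at 166, 164 and 143 CPM in f/f against 174, 178 and 187 CPM in the ECKO-labelled libraries. The groups did not overlap, but the difference was small (adjusted p = 0.283, log2 fold change 0.19, SE 0.10) and turned to -0.04 with total count scaling and on both FPKM scales. Cxcr6 held 10 counts over f/f and 27 over the ECKO-labelled libraries, too few for the filter. Cxcl13, which draws B cells into follicles, Cxcl14, and Ccl25 and Ccl27a, the ligands of CCR9 and CCR10, had log2 fold changes of -0.29, -0.33, -0.39 and -0.08 (adjusted p 0.558 to 0.946).

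Receptors of leukocytes were near the lower limit of these libraries. Ccr7, which guides dendritic cells and lymphocytes to lymph nodes, stood at 0.919, 1.13 and 2.77 CPM in f/f against 0.532, 0.348 and 0.172 CPM in the ECKO-labelled libraries (adjusted p = 0.0864, log2 fold change -2.20, SE 0.61). Cxcr5, the receptor for CXCL13 on B cells, stood at 0.669, 1.52 and 0.745 CPM in f/f against 0.266, 0.116 and 0.287 CPM in the ECKO-labelled libraries (adjusted p = 0.0802, log2 fold change -2.10, SE 0.56). Neither overlapped between groups. Ccr7 passed in DESeq2 (adjusted p = 0.0227) and in edgeR with total count scaling (0.0271). Cxcr5 passed with that scaling (0.0329) but not in DESeq2 (0.0520). Neither gene passed in a fit with a library left out. Ccr2, the monocyte receptor for CCL2, overlapped, with a log2 fold change of 0.06 (adjusted p = 0.956, SE 0.59) that turned below 0 with total count scaling (-0.21) and on both FPKM scales (-0.093 and -0.010). Where a library has no count, the limit is 3 counts, or 0.124 to 0.200 CPM by library, for counting error only.

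Markers of the leukocytes that carry these receptors differed widely in level. The 11 markers of B and plasma cells summed to 23.5, 50.2 and 51.2 CPM in f/f against 13.4, 8.48 and 10.4 CPM in the ECKO-labelled libraries, and 4 of the 9 tested fell, among them Cd79a, Ighm and Jchain. The change of Cd79a, a B cell receptor chain, was -2.45 in log2 (adjusted p = 0.0358, SE 0.47), and it passed only without f/f replicate 1 (0.0100, otherwise up to 0.125) when libraries were left out, as did Ighm and Jchain (otherwise up to 0.125 and 0.115). The 11 neutrophil markers other than Cxcr2 summed to 14.7 to 25.8 CPM in f/f against 1.51 to 6.39 CPM in the ECKO-labelled libraries, with Ly6g at 0 in all 6 and Mpo, at 13.1 ± 4.92 CPM, the largest part in f/f. Of the 3 neutrophil markers tested, Mpo, the granule enzyme myeloperoxidase, fell (adjusted p = 0.0374, log2 fold change -3.29, SE 0.61) and 2 did not pass. With libraries left out, Mpo passed only without f/f replicate 1 (0.0418, otherwise up to 0.128). The 12 markers of T and NK cells summed to 2.93 to 6.43 CPM in f/f against 3.43 to 6.19 CPM in the ECKO-labelled libraries. The 10 Kupffer cell markers summed to 28.2 to 48.7 CPM in f/f against 31.0 to 54.8 CPM in the ECKO-labelled libraries, and the 12 monocyte markers other than receptors to 402 to 924 and 404 to 572 CPM. Dendritic cell markers summed to 542 to 832 CPM in f/f against 560 to 725 CPM in the ECKO-labelled libraries. Among them (7 tested) Clec9a rose and the MHC class II genes H2-Aa and H2-Ab1 fell, among those of other endothelium (9 tested) Selp rose and Cd34 fell, and among those of cholangiocytes (6 tested) Cldn4 fell. Of the 12 sinusoidal markers Pecam1 rose, and no marker of hepatocytes (10 tested), T and NK cells (2), Kupffer cells (9), monocytes (9) or platelets (3) passed. H2-Aa passed in all 6 fits with a library left out, and H2-Ab1 and Pecam1 missed in all 6 (adjusted p up to 0.111 and 0.164). Clec9a and Cd34 passed only without ECKO replicate 2 or f/f replicate 1 (otherwise up to 0.115 and 0.121). Selp passed only without f/f replicate 1 or f/f replicate 3 (otherwise up to 0.0975), and Cldn4 only without f/f replicate 1 (otherwise up to 0.108). Their part in the receptor values was not tested.

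The 12 genes with 10 or more counts that the filter removed held between 11 and 54 counts in all. Ccr6, a receptor of B cells and Th17 cells, held 1, 2 and 11 counts in f/f against 0 in each ECKO-labelled library. With 3 counts set for the other group, the f/f level was 3.39-fold higher. This figure takes the f/f counts as exact, so it is not a lower limit on the difference. The figure for Ccr6 rests on f/f replicate 3, since the other f/f libraries together held no more than the floor. Ccl12, a ligand of CCR2, held 10, 0 and 1 counts in f/f against 0 in the other group. It was 2.66-fold higher on the same floor, again with the f/f counts taken as exact. That figure rests on f/f replicate 1, since the other f/f libraries together held 1 count, under the floor. For Ccl11, an eosinophil chemokine, and Ccr10 the ECKO-labelled libraries held 2 counts each, giving ratios of ECKO over f/f of 0.251 (95% exact interval 0.0270 to 1.15) and 0.276 (0.0294 to 1.29) for counting error only. Cxcr3, the receptor for CXCL9 and CXCL10, held 18 counts in f/f against 23 in the ECKO-labelled libraries, and Cxcr2 held 8 and 5. Ccr1, Ccl24, Ccl28 and a second row for Ccl27a on an unplaced scaffold held 26, 21, 22 and 10 counts in f/f against 5, 11, 11 and 13 in the ECKO-labelled libraries. Reads of the 2 Ccl27a copies may be shared between their rows.

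Just outside the limit of 10 counts were Xcl1 and Ccl20 with 9 each, and just inside it Ccl12 with 11. The other 9 genes with 1 to 9 counts were Cxcl3, Cxcl15, Ccl8, Xcr1, Ccr3, Ccr4, Ccr8, Ccr9 and Ccr1l1. The 17 rows at 0 included Cxcr1, Cxcl17, Ccl1, Ccl17, Ccl22, Ccl26, Ccl27b, Ccl19 and all copies of Ccl21. CCL19 and CCL21 are the ligands of CCR7.

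Members lie in clusters on the genome (mm10/GRCm38). On chromosome 5, from 90759360 to 90905938, lie Cxcl5, Cxcl3, Cxcl15, Cxcl1 and Cxcl2, whose 3 tested genes had log2 fold changes from -3.79 to -2.04. Further along chromosome 5, from 92321347 to 92365485, Cxcl9, Cxcl10 and Cxcl11 ranged from -3.51 to -0.89. On chromosome 11 the group at 82035571 to 82305690, with Ccl2 and Ccl7, had a median of -2.21, and the group at 83525778 to 83664683, with Ccl3, Ccl4, Ccl5, Ccl6 and Ccl9, a median of -0.95. Without a stated strand setting, reads of overlapping genes cannot be separated: Art3 lies opposite Cxcl10 and Cxcl11, Zmynd15 opposite the end of Cxcl16, and Acad11 opposite Ackr4, while Cadm3 overlaps Ackr1 on the same strand. Among the low members, Fyco1 (8007 counts) covers all of Cxcr6 (37) and Cntnap1 (1180) all of Ccr10 (12) on the opposite strand, and Csrnp1 (16768) overlaps Cx3cr1 (54) on the same strand. Cxcl12 and Ackr2 overlap no other row of the table.

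In the rest of the chemokine system, 1 gene passed in each of 4 lists outside the rule, and all 4 fell. The background was 2.79% of all genes lower and 1.24% higher, so these single calls say little about the lists. Of 9 related genes (8 tested) Cd74, the MHC class II invariant chain and a receptor for MIF, fell from 54.2 ± 13.1 to 17.6 ± 4.08 CPM (adjusted p = 0.0153, log2 fold change -1.62, SE 0.22), and 7 did not pass. Dpp4, the peptidase that trims CXCL12 and CXCL10, stood at 760 ± 41.8 CPM in f/f against 903 ± 140 CPM in the ECKO-labelled libraries (adjusted p = 0.300). Of 33 signalling genes (32 tested) Gnai1, an inhibitory G protein subunit, fell by 1.01 in log2 units (adjusted p = 0.0307, SE 0.18). Of 19 heparan sulfate genes (18 tested) Gpc4, the proteoglycan glypican 4, fell by 0.87 (adjusted p = 0.0432, SE 0.18). Of 26 NF-kB regulators and inducing cytokines (25 tested) Il17ra, a receptor chain for IL-17, fell by 1.297 (adjusted p = 0.0250, SE 0.21). The medians of the lists were -0.07, -0.20, -0.17 and -0.22. With single libraries left out, Cd74 did not pass in the absence of ECKO replicate 2, ECKO replicate 3 or f/f replicate 3 (adjusted p up to 0.0668), nor Il17ra in that of ECKO replicate 1, ECKO replicate 2 or f/f replicate 3 (up to 0.103). Gnai1 passed only without f/f replicate 1 (0.0333, otherwise up to 0.115) and Gpc4 only without ECKO replicate 2 (0.0358, otherwise up to 0.141).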

How the data were processed

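The submitters' processing notes name HISAT2 2.0.4 and StringTie 1.3.0, with no role, and as builds GRCm38.p4 and mm10; the sources used here do not give the counter, annotation or strand setting. The authors deposited raw counts per gene and FPKM values for each library, per the file headers; a test on the values showed FPKM to be the count over a gene length and the library total, to a relative difference of 4.53e-06 (7566 genes). All per-sample columns were used.

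The deposited counts were fitted with edgeR 4.0.16 (R 4.3.3): filterByExpr (minimum count 10, minimum total 15), TMM, a robust quasi-likelihood F-test with genotype as the only term, two-sided, and Benjamini-Hochberg adjustment over 13692 genes. SE is the absolute log2 fold change over the square root of F. CPM values are TMM-scaled. For a single value, 3 libraries against 3 give no exact permutation p below 0.1. On simulated counts the test recovered 93 of 100 genes changed by 2 on the log2 scale and 61 of 97 changed by 1 (13545 genes). It also called 11 unchanged genes. Each gene was drawn separately from its fitted dispersion, with no shift shared by many genes in a library, so these rates need not hold for the data.

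Members and lists were chosen with earlier results of these data known. Given in full were members that passed, members with a mean of 10 CPM or more and the 6 others with the smallest p (17 in all); Cxcl11, Ccl9, Ccl5 and the genes named with low counts or small changes were added for completeness after their values were seen. Genes of the 17 other lists were named if they passed, at most 4 a list; Stab2, Lyve1, Ly6g and Dpp4 were added. List genes that are members were left out of the lists. The values of some genes are not reported here, though counts and sums include them. Alternatives used DESeq2 1.42.0 and limma 3.58.1 (voom, and log2 FPKM with pseudocounts of 0.1 and 1 on the genes the filter kept).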

Additional observations from a re-analysis of the deposited data

How the results depend on the processing

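The 1 chemokine gene that was higher and the 1 that was lower came from edgeR with TMM; RLE size factors, limma-voom and a filter of 10 counts in all gave the same counts. The count of higher genes was 0 with total count scaling, with FPKM under either pseudocount and with the replicate block. The count of lower genes was 9 in DESeq2, 9 with total count scaling, 7 and 4 on FPKM with pseudocounts of 0.1 and 1, 3 with no filter on low counts and 2 with the replicate block. Leaving out single libraries gave 0 to 1 higher genes and 0 to 2 lower. The median log2 fold change of the family was -0.95, and -1.25 with total count scaling, -0.66 on FPKM with a pseudocount of 1, -0.78 with the replicate block and -1.12 to -0.78 with single libraries left out. Cxcl16 turned from 0.19 to -0.0416 with total count scaling, -0.0429 on FPKM with 0.1 and -0.0418 with 1. No other of the 17 members given in full changed sign. Of the rest, Ccr2 (0.06) was between -0.85 and -0.010 in limma-voom, with total count scaling, on FPKM, with the block and without ECKO replicate 1. Ccl27a (-0.08) was 0.14, 0.27 and 0.22 without ECKO replicates 2 and 3 and f/f replicate 2, and Ccl25 (-0.39) was 0.03 without f/f replicate 3. Over all genes 382 were lower of 552 called, against 1038 of 1491 in DESeq2 (20077 genes, with its own filter on mean counts in the adjustment). The same figures were 1209 of 1272 with total count scaling, and 720 of 769 and 539 of 578 on FPKM (median of all genes -0.21 and -0.14). They were 505 of 728 with no filter, 285 of 416 with the block and 200 of 315 with limma-voom. Leaving out single libraries gave 35 to 1012 called. The replicate numbers were not taken as pairs: same-numbered libraries correlated at 0.0946, 0.152 and -0.0520 in their deviations from the group means. With the number as a block Ackr2 missed the threshold (adjusted p = 0.0633) and Ackr3 passed (adjusted p = 0.0467). The cause of these changes was not tested.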

Other observations

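A few regulators of the inflammatory ligands, picked after their values were seen, matched 6 of the 8 ligands in their highest and lowest f/f library. The other ligands, Cxcl5 and Ccl7, were lowest of the f/f libraries in replicate 3. Because they were picked this way, the match is a description and no evidence that such regulators follow the ligands. Tnfaip3, a feedback inhibitor of NF-kB, stood at 353, 63.8 and 144 CPM in f/f against 35.7, 37.7 and 46.7 CPM in the ECKO-labelled libraries (log2 fold change -2.23, SE 0.58; edgeR quasi-likelihood adjusted p = 0.0878). Nfkbiz, an NF-kB cofactor, stood at 353, 50.2 and 279 CPM in f/f against 56.0, 41.7 and 90.0 CPM in the ECKO-labelled libraries (adjusted p = 0.167). Irf1, a transcription factor of the interferon response, stood at 279, 72.6 and 213 CPM in f/f against 84.5, 93.8 and 113 CPM in the ECKO-labelled libraries (adjusted p = 0.255). In all 3 genes f/f replicate 1 was the highest library and f/f replicate 2 the lowest of its group, as for Cxcl1, Cxcl2, Cxcl9, Cxcl10, Cxcl11 and Ccl2. None passed. Il6 had too few counts for the filter and did not share this order. It stood at 0.543, 1.37 and 0.455 CPM in f/f against 0 in each ECKO-labelled library.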
